A study of Mus musculus with 12 samples.

Results

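Cells in the G1 phase enter S phase when cyclin-dependent kinases (CDKs) phosphorylate the retinoblastoma protein, and CDK inhibitors hold that step back. The INK4 inhibitors bind CDK4 and CDK6 alone, whereas the CIP/KIP inhibitors bind cyclin-CDK complexes more widely. The transcription factor p53 induces the CIP/KIP inhibitor Cdkn1a together with genes of repair and apoptosis, and Mdm2, itself a p53 target, is the ubiquitin ligase that degrades p53. In the subventricular zone, the germinal layer beside the lateral ventricles, Cdkn2a is known for limiting stem cell self-renewal with age.

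The 10 genes described are 5 CDK inhibitors (Cdkn1a, Cdkn1b, Cdkn2a, Cdkn2b and Cdkn2c), Trp53, which encodes p53, and 4 p53 targets (Mdm2, Ccng1, Zmat3 and Aen). They were taken by symbol from the 55401 Ensembl gene identifiers of the deposited count table, and all 10 passed the filter on low counts that left 16135 genes to test.

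The libraries came from primary cultures of the subventricular zone of CD1 mice, 4 libraries in each of 3 groups. Postnatal NSC libraries were made from neural stem cells of pups at postnatal day 0 to 2, and Adult NSC libraries from neural stem cells of mice aged 2 months. Both were grown as neurospheres, floating clusters of dividing progenitors, for 6 to 7 days in medium without serum that held heparin (2 ug/mL), B27 (2%) and the mitogens EGF (20 ng/mL) and FGF (10 ng/mL). Postnatal OPC libraries came from oligodendrocyte precursor cells, obtained when dissociated postnatal neurospheres were plated as a monolayer for 2 days with PDGF-AA and FGF (each at 10 ng/mL) and B27 (2%). Age therefore separates the 2 neurosphere groups, whereas cell type, medium and growth as a monolayer change together in the OPC group, which has no adult counterpart here. No group was treated. The series describes 4 independent litters; whether animals of a litter were pooled is not given in the sources used here.

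Total counts ran from 38928989 to 54801726 in the Postnatal NSC libraries, from 16756231 to 20064043 in the Adult NSC and from 17226501 to 23651396 in the Postnatal OPC, so depth is higher in 1 group and cannot be told apart from it. All 4 Postnatal NSC totals exceed the 37000000 reads that the labels state for that group. Adult NSC 2 and Postnatal OPC 1, 2 and 4 likewise exceed the 20000000 reads stated for theirs. Levels are given as CPM, counts relative to the library's total, scaled by TMM, which corrects for differences in library composition. The OPC marker Pdgfra stood at 1433 ± 710 CPM in the OPC (SD, n = 4), 229.96 ± 59.6 in the Postnatal NSC and 12.2 ± 2.98 in the Adult NSC, and Sox10 at 191 ± 130.1, 136 ± 70.3 and 12.4 ± 1.48. Olig2, which progenitors share, stood at 899 ± 171, 528 ± 167 and 622 ± 24.7 CPM in the same order, and the stem cell markers Nes and Sox2 at 745 ± 194 and 334 ± 62.5, 1534 ± 134 and 201 ± 42.7, and 2071 ± 83.4 and 213 ± 9.95. Both neurosphere groups thus held RNA of OPC markers, although Pdgfra and Sox10 were low in the Adult NSC. The 8 OPC markers summed to 5207 to 6324 CPM in the Postnatal NSC and 5117 to 5420 in the Adult NSC. In the OPC they summed to 10128 to 12566 CPM. The 8 stem cell markers summed to 7709 to 8926 CPM in the Postnatal NSC and 9747 to 10397 in the Adult NSC. In the OPC, at 5827 to 9151 CPM, they overlapped the Postnatal NSC. Other lineages were read from summed marker levels. The 6 neuroblast and neuron markers summed to 661 to 1005 CPM in the Postnatal NSC, 656 to 742 in the Adult NSC and 1285 to 1975 in the OPC, the 6 astrocyte markers to 1018 to 1899, 1267 to 1382 and 636 to 1124, and the 6 mature oligodendrocyte markers to 328 to 901, 144 to 183 and 258 to 531; each marker had counts in each group, and their part in the results was not tested. Summed levels of 8 microglia markers were at most 2.02 CPM and of 5 erythroid markers at most 0.199 CPM in any library. In the Postnatal NSC, 10 dissociation and immediate early genes summed to 4360 to 12475 CPM, against 632 to 715 in the Adult NSC and 307 to 356 in the OPC. In bulk cultures, fewer cells expressing a gene and less RNA per cell cannot be told apart.

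Postnatal NSC 3 and Postnatal OPC 2 stood apart in their division genes. The mean log2(CPM + 1) of 24 G1/S genes was 4.96 and 4.63 in these libraries and 5.93 to 6.69 in the other 10. Mean log2(CPM + 2) of 4 Y-linked genes was 1.00 to 1.03 in Adult NSC 1 and Postnatal NSC 2 and 3, and 4.36 to 6.03 in the others. Values near 1.00 stand for almost no Y-linked RNA, and no OPC library was among these. The Y-linked level used below as a covariate, a stand-in for sex, is therefore not balanced over the groups.

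**Figure D1:**
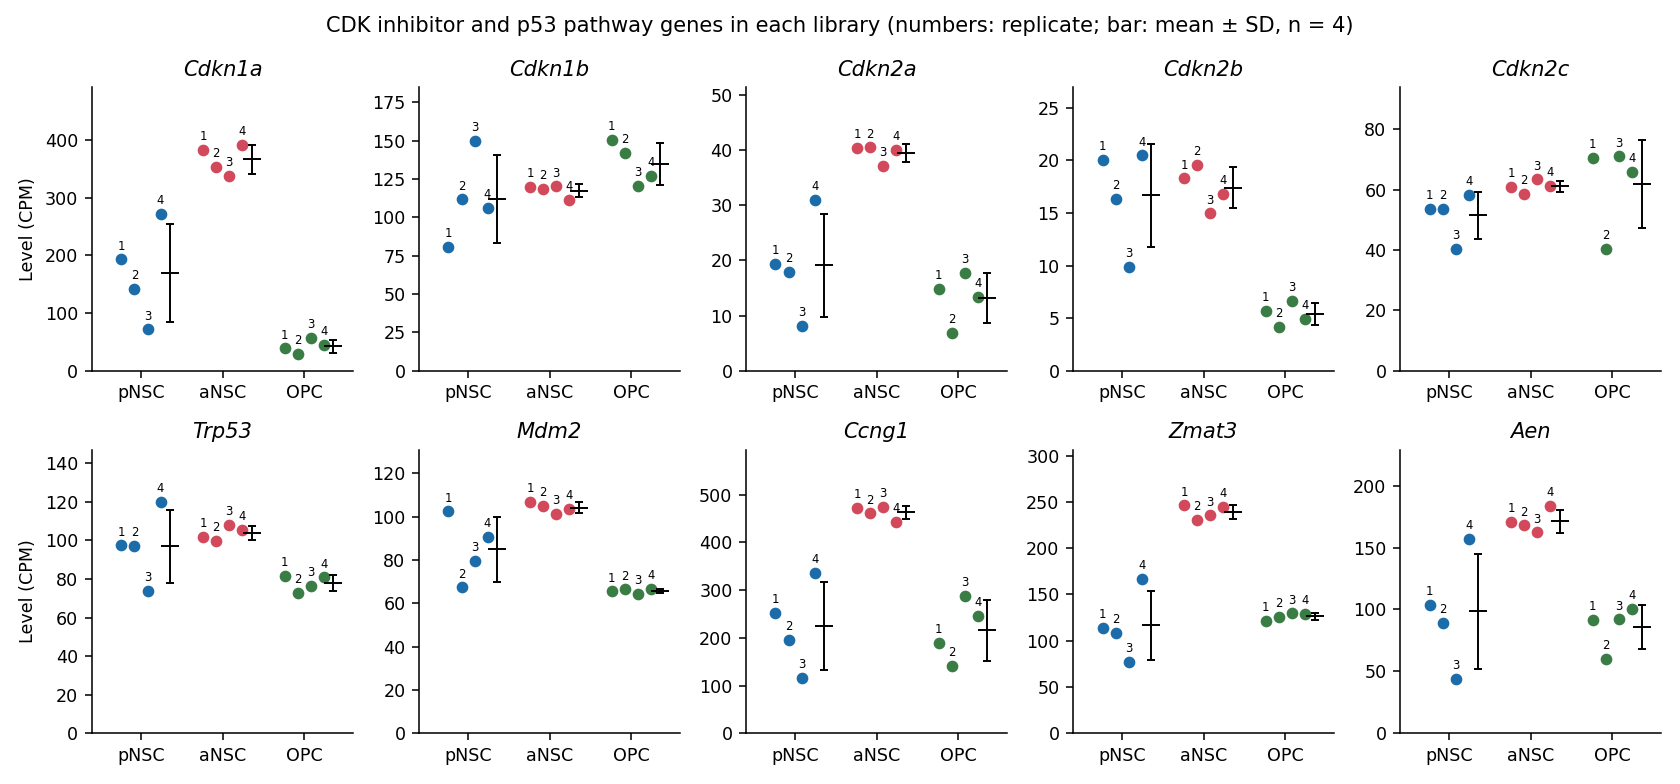
Level of each gene in CPM (y axis from 0) in the 4 libraries of Postnatal NSC (pNSC), Adult NSC (aNSC) and Postnatal OPC (OPC); digits are replicate numbers and the bar is the mean with its SD. The Adult NSC points are tightly grouped and highest for Cdkn1a, Cdkn2a, Ccng1, Zmat3 and Aen, whereas Postnatal NSC 3 is lowest of its group for all genes except Cdkn1b, where it is highest, and Mdm2.

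Cdkn1a, which encodes the p21 protein, lies at chr17:29090976-29100727 on the plus strand of GRCm38. It measured 193, 142, 71.5 and 272 CPM in Postnatal NSC 1 to 4, 383, 354, 337 and 391 CPM in Adult NSC 1 to 4, and 38.5, 29.0, 56.7 and 45.0 CPM in Postnatal OPC 1 to 4. The 3 groups did not overlap, with the adult neurospheres highest and the OPC lowest. Across the 10 genes, Cdkn1a had the widest difference between groups, an 8.66-fold ratio of the Adult NSC mean to the OPC mean.

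Promoter windows of Cdkn1a and Ccng1 hold a full p53 consensus site, and no other of the 10 genes has one in the windows searched. RefSeq windows of 300 bases (GRCm38.p6; 250 bases before to 50 after a start site) were found for 9 of the 10 genes, all except Zmat3. They were searched for the p53 consensus half-site of 10 bases, which reads the same on both strands, and for a full site, defined as 2 half-sites side by side with at most 1 mismatch in all. The full sites of Cdkn1a and Ccng1 are shown first, as the only such matches among the 10 genes. Capitals mark the full site, and each sequence is read 5′ to 3′ on the strand of its gene.
Cdkn1a, chr17:29090913-29090962, plus strand: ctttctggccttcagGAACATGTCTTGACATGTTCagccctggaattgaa
Ccng1, chr11:40755447-40755496, minus strand: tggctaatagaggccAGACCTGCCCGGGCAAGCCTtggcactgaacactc
The Cdkn1a site begins 51 bases before the upstream of its 2 RefSeq start sites, which lie 2790 bases apart, and the Ccng1 site begins 195 bases before its start. Each has 1 mismatch to the consensus. Of all 32851 windows, 29 (0.0883%) held such a full site and 2745 (8.36%) at least 1 half-site. Half-sites, but no full site, were found in windows of Aen, Mdm2 and Trp53. Whether sites relate to levels was not tested. Capitals mark the half-site in these sequences.
Aen, chr7:78895922-78895961, plus strand: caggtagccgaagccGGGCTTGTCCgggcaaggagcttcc
Mdm2, chr10:117710920-117710959, minus strand: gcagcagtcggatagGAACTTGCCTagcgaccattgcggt
Trp53, chr11:69580269-69580308, plus strand: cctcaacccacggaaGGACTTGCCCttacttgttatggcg
The rule for the full site was chosen after these windows had been read. A first rule, 2 half-sites with no mismatch and 0 to 13 bases between them, matched 24 windows (0.0731%) and, among the 10 genes, only Cdkn1a. A match describes the letters of a window and not a bound site.

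Ccng1 encodes cyclin G1, an atypical cyclin induced by p53, and lies at chr11:40748552-40755311 on the minus strand. It measured 252, 197, 116 and 336 CPM in Postnatal NSC 1 to 4, 473, 461, 474 and 444 CPM in Adult NSC 1 to 4, and 189, 142, 288 and 246 CPM in Postnatal OPC 1 to 4. All 4 adult libraries lay above the other 8, which overlapped. Ccng1 and Cdkn1a were thus both highest in the adult neurospheres, but in the OPC Ccng1 stayed within the Postnatal NSC range while Cdkn1a lay below it.

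Zmat3 encodes a zinc finger RNA-binding protein induced by p53, and lies at chr3:32334792-32366014 on the minus strand. Its levels were 114, 109, 77.0 and 167 CPM in Postnatal NSC 1 to 4, 246, 231, 236 and 245 CPM in Adult NSC 1 to 4, and 122, 126, 129.5 and 129.3 CPM in Postnatal OPC 1 to 4. Aen, a p53-induced nuclease of apoptosis at chr7:78895854-78911209 on the plus strand, stood at 104, 89.5, 43.9 and 157 CPM in Postnatal NSC 1 to 4, 171, 168, 162 and 184 CPM in Adult NSC 1 to 4, and 91.3, 59.9, 92.0 and 100.4 CPM in Postnatal OPC 1 to 4. For both genes the adult libraries were highest without overlap, and the OPC fell inside the range of the Postnatal NSC.

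Trp53 and Mdm2 varied less than these targets. Trp53, at chr11:69580359-69591873 on the plus strand, measured 97.4, 97.0, 73.7 and 120.1 CPM in Postnatal NSC 1 to 4, 102, 99.7, 108 and 106 CPM in Adult NSC 1 to 4, and 81.5, 72.8, 76.4 and 80.8 CPM in Postnatal OPC 1 to 4. Mdm2, at chr10:117688875-117710758 on the minus strand, measured 102, 67.4, 79.7 and 90.7 CPM in Postnatal NSC 1 to 4, 107, 105, 101 and 104 CPM in Adult NSC 1 to 4, and 65.5, 66.5, 64.4 and 66.5 CPM in Postnatal OPC 1 to 4. The OPC libraries held the lowest Mdm2 levels and the Postnatal NSC bridged the range between OPC and adult.

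The other CIP/KIP inhibitor, Cdkn1b (p27), lies at chr6:134920401-134925513 on the plus strand. It measured 80.7, 112, 150.1 and 106 CPM in Postnatal NSC 1 to 4, 119.8, 119, 120.2 and 111 CPM in Adult NSC 1 to 4, and 151, 142, 120.4 and 127 CPM in Postnatal OPC 1 to 4. The groups overlapped except for the Adult NSC and the OPC, and Postnatal NSC 3, lowest of its group for Cdkn1a, was highest of its group for Cdkn1b.

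The INK4 genes Cdkn2a and Cdkn2b are neighbours at chr4:89274471-89294653 and chr4:89306299-89311039, both on the minus strand. Cdkn2a encodes p16Ink4a and, from another promoter and reading frame, p19Arf, which inhibits Mdm2. A count per gene merges them, so the annotated transcripts, 2 in number, were not separated. Cdkn2a measured 19.3, 17.9, 8.09 and 31.0 CPM in Postnatal NSC 1 to 4, 40.3, 40.5, 37.1 and 40.03 CPM in Adult NSC 1 to 4, and 14.8, 6.89, 17.7 and 13.4 CPM in Postnatal OPC 1 to 4. Cdkn2b (p15Ink4b) measured 20.04, 16.3, 9.84 and 20.5 CPM in Postnatal NSC 1 to 4, 18.3, 19.6, 14.97 and 16.8 CPM in Adult NSC 1 to 4, and 5.71, 4.16, 6.63 and 4.95 CPM in Postnatal OPC 1 to 4. The neighbours differed in pattern: Cdkn2a stood apart in the adult neurospheres, where it was highest, and Cdkn2b stood apart in the OPC, where it was lowest. Cdkn2b had the fewest reads of the 10, with 102 to 118 counts in each OPC library.

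Cdkn2c (p18Ink4c), at chr4:109660876-109667189 on the minus strand, measured 53.57, 53.62, 40.5 and 58.3 CPM in Postnatal NSC 1 to 4, 61.0, 58.7, 63.4 and 61.3 CPM in Adult NSC 1 to 4, and 70.5, 40.5, 71.1 and 65.8 CPM in Postnatal OPC 1 to 4. The low libraries were Postnatal NSC 3 and Postnatal OPC 2, those with the low G1/S levels.

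Levels were compared between genes per kb of exon. Ccng1 was highest in each group, at 64.1 ± 26.4, 132 ± 4.04 and 61.5 ± 18.2 CPM per kb in Postnatal NSC, Adult NSC and OPC (SD, n = 4 throughout). Cdkn1a was the next highest in both neurosphere groups, at 47.8 ± 23.8 and 103 ± 7.05 CPM per kb. In the OPC it stood at 11.9 ± 3.28 CPM per kb, below Cdkn1b at 29.7 ± 3.02, Cdkn2c at 23.1 ± 5.41 and Trp53 at 19.3 ± 1.01. Cdkn2b was lowest in the OPC, at 3.86 ± 0.760 CPM per kb. In the Adult NSC, Cdkn2a at 33.7 ± 1.37 exceeded Cdkn2b at 12.5 ± 1.43 CPM per kb in all 4 libraries. In the Postnatal NSC, with 16.3 ± 8.01 and 12.0 ± 3.54, their ranges overlapped. There Cdkn2a exceeded Cdkn2b in each library except Postnatal NSC 3 (6.90 and 7.08 CPM per kb).

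**Figure D2:**
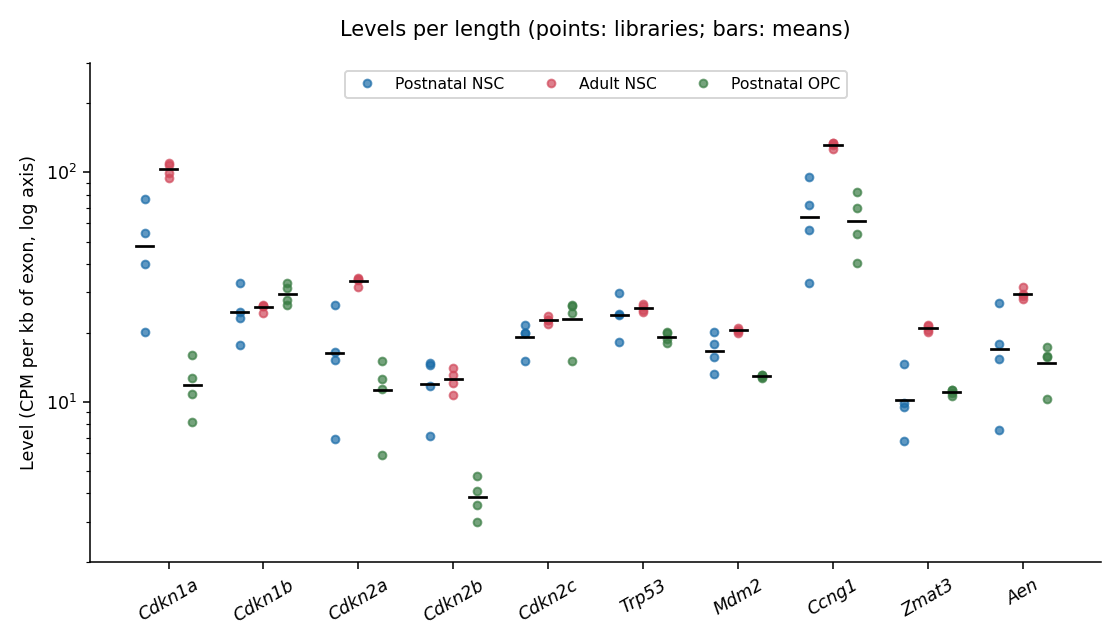
Level per kb of exon (log axis) of each gene in every library, coloured by group, with a bar at each group mean. Ccng1 is highest in each group, Cdkn1a spans from 11.9 CPM per kb in the OPC to 103 in the Adult NSC, and Cdkn2b in the OPC is the lowest of all.

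Replicates differed more in some groups than in others. In the Adult NSC the coefficient of variation of the 10 genes ran from 2.27% (Mdm2) to 11.4% (Cdkn2b), whereas in the Postnatal NSC it ran from 14.9% (Cdkn2c) to 49.8% (Cdkn1a). In the OPC it ran from 1.53% (Mdm2) to 34.6% (Cdkn2a). The p-values that follow set each difference against the spread among these cultures, estimated for each gene over all 12 libraries. The spread of the group not compared thus enters each test of the main fit.

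In the comparison of the 2 neurosphere groups, whose donor animals differ in age, 6 of the 10 genes were higher in the Adult NSC and none was lower. Depth and the level of immediate early genes differ between these groups as well, and cannot be told apart from age. A gene was called at a Benjamini-Hochberg adjusted p under 0.05 in edgeR's quasi-likelihood test. Cdkn1a rose 2.16-fold (log2 fold change 1.11 ± 0.32 SE, adjusted p = 0.0109), Cdkn2a 2.07-fold (1.05 ± 0.34, adjusted p = 0.0204) and Ccng1 2.06-fold (1.04 ± 0.28, adjusted p = 0.00773). Zmat3 rose 2.05-fold (1.04 ± 0.17, adjusted p = 0.000448) and Aen 1.74-fold (0.80 ± 0.29, adjusted p = 0.0336). These 5 did not overlap between the groups. Mdm2 rose 1.23-fold (0.29 ± 0.11, adjusted p = 0.0331), with Postnatal NSC 1 inside the adult range.

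Of all 16135 genes, 53.1% were called in this comparison, 25.2% as higher and 27.9% as lower, and 53.2% did not overlap between the groups. The median log2 fold change of the 10 genes was 0.55, against -0.03 over all genes tested. The remaining 4 genes missed the threshold: Cdkn1b (0.07 ± 0.15, adjusted p = 0.718), Cdkn2b (0.06 ± 0.21, adjusted p = 0.814), Cdkn2c (0.25 ± 0.16, adjusted p = 0.217) and Trp53 (0.10 ± 0.12, adjusted p = 0.503). Without Postnatal NSC 2 only 3 of the 6 calls were left: Cdkn2a (adjusted p = 0.0562), Aen (0.0905) and Mdm2 (0.157) missed the threshold. Aen also missed it without Postnatal NSC 1 (0.0564) or without Adult NSC 1 (0.0603), 2 (0.0576), 3 (0.0540) or 4 (0.0685), and Mdm2 without any 1 of Postnatal NSC 3 or 4, the 4 Adult NSC and Postnatal OPC 1 or 2 (0.0519 to 0.0744). With the Y-linked level as a covariate Aen (adjusted p = 0.0562) and Mdm2 (0.0659) were lost and 4 calls were made, and with library totals in place of TMM Aen (0.0505) and Mdm2 (0.116) were lost. In all, the Mdm2 call was lost in 16 of 24 alternatives.

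In the comparison of Postnatal OPC with Postnatal NSC, the kind of culture OPC were obtained from, 4 of the 10 genes were lower in the OPC and none was higher. Cdkn1a fell most, from 169.7 ± 84.5 to 42.3 ± 11.6 CPM (SD, n = 4), with a log2 fold change of -2.01 ± 0.33 SE and an adjusted p of 0.000412. Cdkn2b fell from 16.7 ± 4.92 to 5.36 ± 1.06 CPM (-1.64 ± 0.22, adjusted p = 0.000128). Mdm2 fell by 0.37 ± 0.11 on the log2 scale (adjusted p = 0.0124). Trp53 fell by 0.32 ± 0.12 (adjusted p = 0.0429), with Postnatal NSC 3 inside the OPC range.

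Across all genes 45.1% were called in this comparison, 22.7% as lower and 22.4% as higher in the OPC, and 34.9% did not overlap. The median log2 fold change was -0.26 over the 10 genes and -0.01 over all genes. Of the p53 targets, Ccng1 (-0.06 ± 0.27, adjusted p = 0.878), Zmat3 (0.12 ± 0.17, adjusted p = 0.599) and Aen (-0.20 ± 0.29, adjusted p = 0.596) were not called. Of the inhibitors, Cdkn1b (0.27 ± 0.15, adjusted p = 0.159), Cdkn2a (-0.54 ± 0.34, adjusted p = 0.218) and Cdkn2c (0.27 ± 0.16, adjusted p = 0.200) were not called. The Trp53 call was lost without any 1 library other than Postnatal NSC 3 or Postnatal OPC 1 (adjusted p = 0.0517 to 0.0906) and with the replicate block (0.0553). Without Postnatal NSC 3, Cdkn1b became higher (0.44, adjusted p = 0.00783) and Cdkn2a lower (-0.79, adjusted p = 0.0274), giving 6 calls. Without Postnatal OPC 2, Cdkn2c became higher (0.40, adjusted p = 0.00975). With the Y-linked level as a covariate Cdkn1b was called as higher (adjusted p = 0.0331). With Postnatal NSC 3 and Postnatal OPC 2 both left out, 7 genes were called, 5 of them lower.

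In the comparison of Postnatal OPC with Adult NSC, which differ in age, cell type and culture, 8 of the 10 genes were lower in the OPC. Cdkn1a fell from 366 ± 25.1 to 42.3 ± 11.6 CPM (SD, n = 4), a log2 fold change of -3.12 ± 0.34 SE with an adjusted p of 1.43e-05. Cdkn2b followed at -1.70 ± 0.23 (adjusted p = 6.55e-05) and Cdkn2a at -1.58 ± 0.35 (adjusted p = 0.00232). The targets Ccng1 (-1.10 ± 0.28, adjusted p = 0.00566), Aen (-0.99 ± 0.29, adjusted p = 0.0123) and Zmat3 (-0.92 ± 0.17, adjusted p = 0.000790) followed with similar values. Mdm2 fell by 0.67 ± 0.11 (adjusted p = 0.000262) and Trp53 by 0.41 ± 0.12 (adjusted p = 0.0111).

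None of these 8 genes overlapped between the groups, and neither did Cdkn1b, which was not called (0.20 ± 0.15, adjusted p = 0.281). Cdkn1b was called when the fit held only these 2 groups (0.21, adjusted p = 0.0398). Cdkn2c was not called (0.02 ± 0.16, adjusted p = 0.930), but was higher in the OPC without Postnatal NSC 3 and Postnatal OPC 2 together (0.18, adjusted p = 0.0271). Over all genes 51.0% were called, 24.7% as lower and 26.3% as higher in the OPC, and 56.6% did not overlap. The median log2 fold change of the 10 genes was -0.96, against 0.01 over all genes. The 3 comparisons share libraries pairwise, so their values are set side by side and are not independent of each other.

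**Figure D3:**
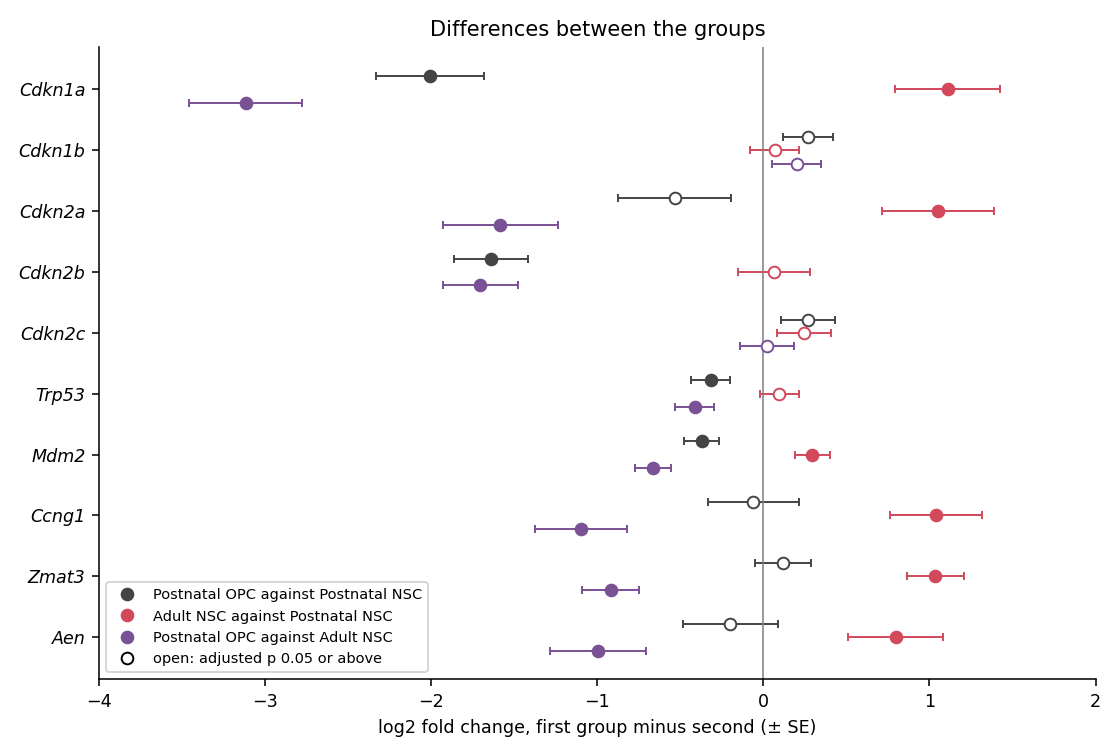
Log2 fold change with its SE for each gene in the 3 comparisons; filled points were called at an adjusted p under 0.05. Cdkn1a lies furthest from 0 in the OPC comparisons (-2.01 and -3.12), and Cdkn1b and Cdkn2c have open points throughout.

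Genes of the division steps that INK4 and CIP/KIP inhibitors hold back were read from fixed lists. For these and all later lists, the shares over all genes tested stand beside the counts. In the adult comparison 25.2% of all genes were called higher and 27.9% lower. In the OPC these shares were 22.4% and 22.7% against the Postnatal NSC, and 26.3% and 24.7% against the Adult NSC. Of 24 G1/S genes, 2 were higher in the Adult NSC than in the Postnatal NSC, Hells, a chromatin remodeller of S phase (1.43), and Slbp, which binds histone mRNA (0.57), and none was called in either OPC comparison by edgeR's quasi-likelihood test. At an unadjusted p under 0.05, 1 gene of the list passed against the Postnatal NSC and 0 against the Adult NSC. DESeq2 called 1 and 0 genes there and limma-voom with quality weights 10 and 1, and in the adult comparison they called 4 and 11 genes. Within the Postnatal NSC, the mean log2(CPM + 1) of the list was 6.39, 6.31, 5.93 and 4.96 in libraries 4, 1, 2 and 3. Cdkn1a, Cdkn2a, Cdkn2b, Trp53, Ccng1, Zmat3 and Aen had that same order, the Postnatal NSC libraries with more RNA of division genes holding more RNA of these genes. In the other groups, of these genes only Aen in the OPC had the order of the list. Adult NSC 3, highest of its group in G1/S genes (6.63), was lowest for Cdkn1a, Cdkn2a, Cdkn2b and Aen and highest for Ccng1 and Trp53. Postnatal OPC 4 was highest in G1/S genes (6.69) and in Aen, but Postnatal OPC 3 in Cdkn1a, Cdkn2a, Cdkn2b, Ccng1 and Zmat3. Postnatal OPC 2, lowest of its group in G1/S genes (4.63), was also lowest for Cdkn1a, Cdkn2a, Cdkn2b, Trp53, Ccng1 and Aen, but not for Zmat3. Whether the division state of a culture has a part in the group differences was not tested.

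**Figure D4:**
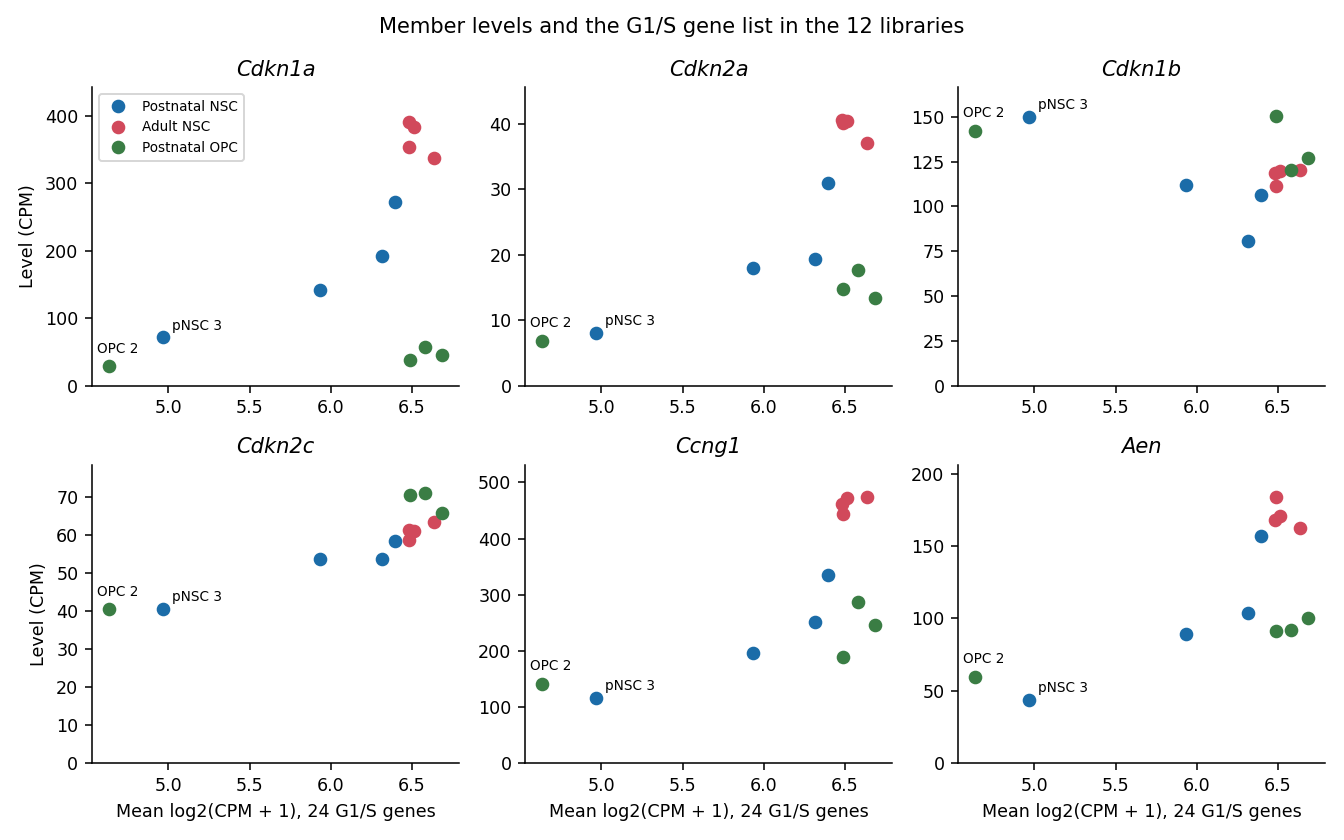
Level of 6 genes in CPM against the mean log2(CPM + 1) of 24 G1/S genes in each of the 12 libraries. Postnatal NSC 3 and Postnatal OPC 2 lie at 4.96 and 4.63 on the x axis, left of the other 10; Both are the lowest of their group for the 5 genes other than Cdkn1b, for which Postnatal NSC 3 is the highest of its group.

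Of 12 genes of the cyclin D, CDK4/6 and RB axis, 3 were higher and 1 lower in the Adult NSC than in the Postnatal NSC. Ccnd1, the cyclin D1 partner of CDK4 and CDK6, rose from 683 ± 478 to 2242 ± 30.2 CPM (SD, n = 4; log2 1.71), and Ccnd2 (1.41) and the transcription factor E2f3 (0.75) were also higher, whereas Cdk4 was lower (-0.19). In the OPC against the Postnatal NSC, Cdk6 (0.72), E2f3 (0.64) and Rb1, the retinoblastoma gene (0.63), were higher and none was lower. Against the Adult NSC, the OPC had higher Rb1 (0.75), Rbl2 (0.40) and Cdk4 (0.18) and lower Ccnd1 (-2.22) and Ccnd2 (-1.61). Among 8 genes of cyclin E, cyclin A and CDK2, Ccne2, Skp2, the ligase that targets p27, and Ccna2 were higher than in the Postnatal NSC both in the Adult NSC (1.81, 0.86 and 0.72; 4 of 8 higher) and in the OPC (1.63, 0.67 and 0.63; 3 of 8 higher), and Cks1b alone differed between OPC and Adult NSC (-0.83).

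Several of these calls were lost when 1 library was left out, some of them whichever of many libraries it was. In the adult comparison, Ccnd1 missed the threshold without Postnatal NSC 2 (adjusted p = 0.0898) or 3 (0.0548) or any 1 Adult NSC library (0.0532 to 0.0553), Ccnd2 without 9 of the 12 libraries singly (0.0557 to 0.116), Slbp without 10 of the 12 (0.0512 to 0.126), Hells without Postnatal NSC 2 (0.0589), Ccna2 without Postnatal NSC 2 (0.0618) or 3 (0.0517) or Adult NSC 3 (0.0501), and Cdk4 without Adult NSC 1 (0.0703), 2 (0.0755) or 3 (0.0510). In the OPC against the Postnatal NSC, Ccna2 was lost without any 1 library other than Postnatal NSC 4 or Postnatal OPC 2 (0.0543 to 0.120), Skp2 without Postnatal NSC 1, 2 or 3 or Postnatal OPC 1, 3 or 4 (0.0751 to 0.104), Cdk6 without Postnatal NSC 1 or 2 or Postnatal OPC 1, 3 or 4 (0.0583 to 0.0825), Ccne2 without Postnatal NSC 2 or Postnatal OPC 1, 3 or 4 (0.0589 to 0.0785) and E2f3 without Postnatal OPC 1 (0.0518) or 4 (0.0529). In the OPC against the Adult NSC, Ccnd2 was lost without any 1 Adult NSC library or Postnatal OPC 1 (0.0508 to 0.0680), Cdk4 without any 1 Adult NSC library or Postnatal OPC 3 or 4 (0.0651 to 0.103) and Rbl2 without Adult NSC 2 (0.0526) or 4 (0.0585).

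Of the other CDK inhibitors, Cdkn1c (p57) was lowest in the Adult NSC. It stood at 25.9 ± 9.40 CPM in the Postnatal NSC, 3.80 ± 0.848 in the Adult NSC and 15.3 ± 5.06 in the OPC (SD, n = 4). The log2 difference was -2.77 ± 0.33 SE between Adult and Postnatal NSC (adjusted p = 5.43e-05) and 2.01 ± 0.32 between OPC and Adult NSC (adjusted p = 0.000277), so Cdkn1c moved opposite to Cdkn1a in both. Between OPC and Postnatal NSC it was -0.76 ± 0.30 (adjusted p = 0.0539), and it passed the threshold in 9 of 24 alternatives, among them DESeq2 (0.0319), limma-voom (0.00820) and the replicate block (0.0167), and without Postnatal NSC 4 (0.00698) or Postnatal OPC 2 (0.0213). Cdkn2d (p19Ink4d) was higher in the OPC than in the Postnatal NSC (0.49 ± 0.15, adjusted p = 0.0180), a call lost without Postnatal NSC 1 (0.0618) or Postnatal OPC 3 (0.0542), and was not called in the other comparisons, although without Postnatal OPC 2 it was higher in the OPC than in the Adult NSC (0.37, adjusted p = 0.0423).

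The further p53 targets, in lists of cell cycle and survival, apoptosis, and repair and metabolism, were called in both directions, as were genes over all. Of all genes tested, 25.2% were higher and 27.9% lower in the adult comparison, with a median log2 fold change of -0.03. In the Adult NSC against the Postnatal NSC, 2 of 14 tested cell cycle and survival genes were higher and 4 lower, 3 of 13 apoptosis genes were higher and 2 lower, and 6 of 13 repair and metabolism genes were higher and 2 lower. The medians of the log2 fold change were -0.23, 0.29 and 0.37. The largest rises were Trp53inp1 (0.74) and Tigar, a regulator of glycolysis (0.64), in the first list, Eda2r (1.10), Apaf1, a core of the apoptosome (0.88), and Ei24 (0.39) in the second, and the thiamine transporter Slc19a2 (1.03), Ak1 (0.80) and the polymerase Polk (0.68) in the third. The largest falls above 5 CPM were Btg2 (-1.34), Plk3 (-1.24) and Gadd45a (-0.81), then Bbc3, which encodes PUMA (-0.88), then the repair gene Ddb2 (-1.32) and Fdxr (-0.49). Btg2 and Plk3 are also known as early response genes, and the immediate early list was lower in the Adult NSC in 10 of 10 genes; its part in their levels was not tested.

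In the OPC against the Postnatal NSC, 22.4% of all genes were higher and 22.7% lower, with a median of -0.01. Here 3 of 14 cell cycle and survival targets were higher and 5 lower, 0 of 13 apoptosis targets were higher and 5 lower, and 2 of 13 repair and metabolism targets were higher and 4 lower, with medians of -0.54, -0.54 and -0.43. The falls were led by Gdf15, a secreted stress cytokine, at 3.33 to 7.75 CPM in the Postnatal NSC and 0 to 2 counts in each OPC library, then Plk3 (-1.73) and Sesn2 (-0.98). The death receptors Tnfrsf10b (-1.995) and Fas (-1.91) and Bbc3 (-1.79) led the apoptosis list, and Dcxr (-1.77), the polyamine enzyme Sat1 (-1.74) and Fdxr (-0.67) the third. Rises were Rprm (0.80), Ccng2 (0.62), Trp53inp1 (0.44), Trp53cor1 (0.72) and the ribonucleotide reductase subunit Rrm2b (0.54). Against the Adult NSC, 26.3% of all genes were higher and 24.7% lower in the OPC, with a median of 0.01. The 3 lists had 2 higher and 4 lower, 1 higher and 6 lower, and 2 higher and 7 lower genes, with medians of -0.35, -0.63 and -1.01. Gdf15, at 4.62 to 6.77 CPM in the Adult NSC, Phlda3 (-1.39), Gtse1 (-1.06), Tnfrsf10b (-2.62), Fas (-2.57), Apaf1 (-0.92), Sat1 (-2.11), Ephx1 (-1.57) and Dcxr (-1.50) were lower, and Ccng2 (1.11), Rprm (1.09), Ddb2 (1.10) and Trp53cor1 (0.75) higher.

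Some of these calls were lost when 1 library was left out, whichever of several libraries it was for most of them. In the adult comparison Btg2 was lost without Postnatal NSC 2 (adjusted p = 0.0512) or 3 (0.138) or any 1 Adult NSC library (0.0685 to 0.0802), Ak1 without 9 of the 12 libraries singly (0.0515 to 0.0949) and Ei24 without Postnatal NSC 2 (0.0594). In the OPC comparisons Ccng2 was lost against the Postnatal NSC without Postnatal NSC 1 (0.0520) or 4 (0.0505) or Postnatal OPC 2 (0.0708), and Trp53cor1 without any 1 of 9 libraries against the Postnatal NSC (0.0534 to 0.150) and any 1 of 5 against the Adult NSC (0.0520 to 0.103). Ddb2 was lost against the Adult NSC without Adult NSC 3 (0.0547) or 4 (0.0561) or Postnatal OPC 1 (0.0510) or 2 (0.0681). Without Postnatal OPC 3, Fas changed to -2.50 against the Postnatal NSC and -3.17 against the Adult NSC.

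**Figure D5:**
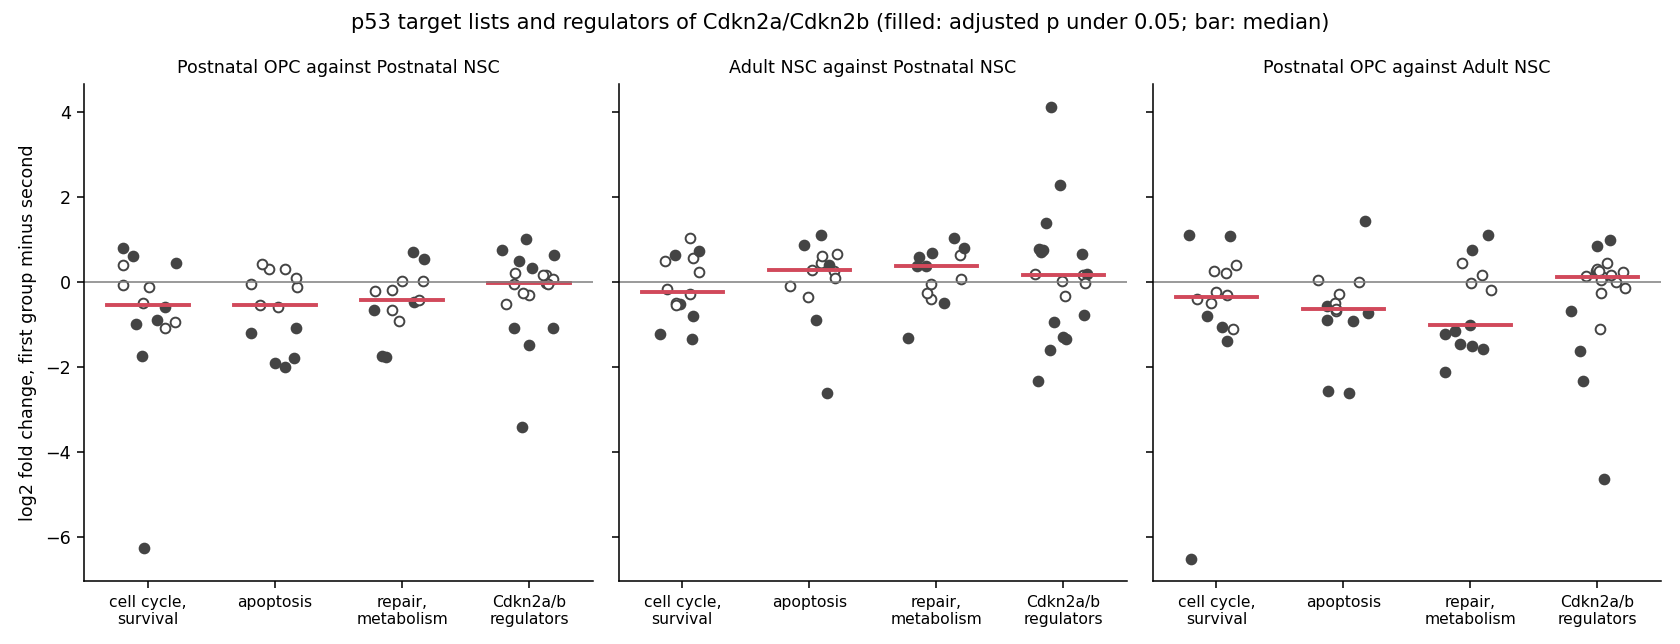
Log2 fold change of every tested gene of 3 lists of p53 targets and a list of regulators of Cdkn2a and Cdkn2b in each comparison; filled points were called and the bar is the list's median. In the comparison of OPC with Adult NSC the p53 target medians lie at -0.35, -0.63 and -1.01; in the comparisons with the Adult NSC the point furthest out in the regulator list is Tbx3, whose mean was at most 1.92 CPM in any group.

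Over all genes, 25.2% were higher and 27.9% lower in the Adult NSC than in the Postnatal NSC. Of 15 regulators of the p53 protein, 5 were higher and none lower, led by the DNA damage kinases Atm (0.86) and Atr (0.58) and the deubiquitinase Usp7 (0.39). In the OPC 6 were higher than in the Postnatal NSC and none lower, led by the phosphatase Ppm1d (0.45), the ubiquitin ligase Cop1 (0.43) and Atr (0.42), the last lost without Postnatal NSC 2 (adjusted p = 0.0501) or Postnatal OPC 1 (0.0522). Against the Adult NSC, the OPC had higher Kat5 (0.36), Trp53bp1 (0.33) and Ppm1d (0.27) and lower Chek2 (-0.73), Atm (-0.54) and Rchy1 (-0.34), with 3 higher and 4 lower in all. Of these, Chek2 was lost without Postnatal NSC 1 or 2, any 1 Adult NSC library or Postnatal OPC 1 or 2 (0.0524 to 0.101), and Ppm1d without Adult NSC 4 (0.0577). The p53 relatives Trp63 and Trp73 were too low to test, at most 0.364 CPM summed in any library.

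Genes that repress or activate Cdkn2a and Cdkn2b were changed in both directions, as were all genes (25.2% higher and 27.9% lower in the adult comparison). In the Adult NSC 8 of 19 tested were higher and 6 lower than in the Postnatal NSC. Bmi1, the Polycomb subunit known for repressing Cdkn2a, stood at 72.7 ± 8.80 CPM in the Postnatal NSC, 124 ± 9.23 in the Adult NSC and 148 ± 6.79 in the OPC (SD, n = 4), so it was higher where Cdkn2a was higher, in the Adult NSC (log2 0.77), and higher again in the OPC (1.02 against Postnatal NSC, 0.25 against Adult NSC). Hmga2, known for holding Cdkn2a down in young stem cells, was at 12.6 ± 10.2, 61.6 ± 6.14 and 12.3 ± 3.97 CPM, highest in the Adult NSC (2.29 against Postnatal NSC). The activator Ets2 rose in the Adult NSC (1.38), and the antagonist Id1 (-2.33) and the Polycomb subunit Cbx8 (-1.34) fell.

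Against the Postnatal NSC, 5 of 19 were higher and 4 lower in the OPC, with Rnf2 (0.75) and Ets1 (0.63) higher and Id1 (-3.43) and Cbx8 (-1.08) lower. Against the Adult NSC, Cbx7 (1.00) and Ring1 (0.85) were higher and Hmga2 (-2.33), Ets2 (-1.63) and Eed (-0.69) lower, in 3 higher and 4 lower. The size of the Id1 difference moved with Postnatal NSC 3, without which it was still called, at -1.28 in the adult and -2.38 in the OPC comparison with the Postnatal NSC, and Hmga2 was 2.90 in the adult comparison without Postnatal NSC 4. The Ets1 call was lost without any 1 of 5 libraries, among them Postnatal OPC 2 (0.29, adjusted p = 0.126), and the Bmi1 call between OPC and Adult NSC without any 1 Adult NSC library or Postnatal OPC 1 or 4 (0.0567 to 0.131).

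Of 9 tested genes linked to senescence, 3 were higher and 1 lower in the Adult NSC than in the Postnatal NSC, beside 25.2% and 27.9% of all genes. Igfbp3 (1.83), Hmgb1 (0.66) and the lysosomal galactosidase Glb1 (0.44) rose, and Igfbp5 fell (-2.28). The Igfbp3 call was lost without Postnatal NSC 2 (adjusted p = 0.0854) or any 1 Adult NSC library (0.0502 to 0.0550). In the OPC, Hmgb1 (0.79) and Lmnb1 (0.53), a lamin known to be lost in senescent cells, were higher than in the Postnatal NSC, and 4 were lower, Igfbp5 (-2.46) among them. Against the Adult NSC, Lmnb1 was higher (0.40) and 5 genes lower, Igfbp3 (-2.70) and Glb1 (-0.63) among them; the Lmnb1 call was lost without Adult NSC 1, 2 or 4 or Postnatal OPC 1, 3 or 4 (0.0568 to 0.104). Il6, Cxcl1 and Mmp3 were too low to test in these cultures. The immediate early genes Fosb (-10.24), Fos (-5.69) and Zfp36 (-5.05) in the adult comparison, Fosb (-12.04), Atf3 (-8.60) and Fos (-7.36) in the OPC comparison, and Jun (-1.90), Junb (-1.84) and Fos (-1.66) in the OPC against the Adult NSC led their list. Fosb was at 595 to 2544 CPM in the Postnatal NSC and at most 1.42 CPM elsewhere, and the part of these genes' state in the levels of the 10 genes was not tested.

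With the Y-linked level as a covariate, further calls on list genes missed the threshold. In the adult comparison these were Ak1 (adjusted p = 0.0796), Btg2 (0.161), Ccnd2 (0.0718) and Slbp (0.0898). For the OPC against the Postnatal NSC they were Atr (0.0935), Cbx8 (0.0645), Ccna2 (0.166), Ccne2 (0.0902), E2f3 (0.0777), Ets1 (0.0545), Lmnb1 (0.0657), Skp2 (0.122) and Trp53cor1 (0.144), and in the OPC against the Adult NSC Lmnb1 (0.0633) and Trp53cor1 (0.0596).

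Across the 12 libraries, the genes most like each member by Pearson correlation of log2(CPM + 2) are given as a description, since the libraries share groups, depth and division state. Cdkn1a was most like Lrrk1 (r = 0.996), Vasp (0.994) and Rps6ka1 (0.991), and Cdkn2a most like Szrd1 (0.988), Ybx3 (0.985) and Actr1b (0.984). Cdkn2b was most like Mrc2 (0.984), Cavin1 (0.983) and Evc2 (0.982), and Cdkn2c most like Clspn, a replication checkpoint gene (0.978), and Slfn9 (0.977). Zmat3 was most like Sec23ip (0.987), Polr1b (0.980) and Hmga2 (0.978). For Ccng1 they were Map3k20 (0.989), Utp20 (0.986) and Timm8a1 (0.985), for Aen Grwd1 (0.981), Fam181b (0.981) and Camkk2 (0.978), for Trp53 Focad (0.962), Rcc1l (0.958) and Ruvbl2 (0.956), for Mdm2 Asph (0.975), Spty2d1 (0.962) and Cldn12 (0.962), and for Cdkn1b Ttc14 (0.941), Amn1 (0.920) and Khdc4 (0.914). Among the members themselves, Aen and Ccng1 (r = 0.966), Aen and Cdkn2a (0.962) and Ccng1 and Cdkn2a (0.959) were most alike, and Cdkn1b ran opposite to Cdkn2b (-0.69) and Trp53 (-0.62).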

How the data were processed

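RNA with a RIN above 9.9 was sequenced from TruSeq Stranded mRNA libraries, per the labels' protocols. The table the authors deposited holds raw counts per Ensembl gene; the submitters' processing notes list FastQC, STAR, featureCounts 1.22.2 and GRCm38, and whether counting used strand is not given in the sources used here. Symbols and exon lengths came from GENCODE M21, which matched 55141 of 55401 identifiers; unmatched identifiers held 0.00947% to 0.0130% of a library's counts.

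Counts were fitted with edgeR 4.0.16 (R 4.3.3; quasi-likelihood, TMM, 1 term per group over all 12 libraries; filterByExpr with a minimum count of 10 and total of 15), with Benjamini-Hochberg adjustment over 16135 genes. Standard errors are the log2 fold change over the square root of F. The scripts were tested on simulated data with known changes in some genes. Of genes changed 1.5-fold, 14.1% to 26.2% were recovered, depending on the comparison, so a gene not called may still differ. The shares were 62.1% to 76.3% at 2-fold and 84.3% to 90.8% at 4-fold. Of 119 to 129 calls, 5 to 8 were false. Alternatives used limma 3.58.1, DESeq2 1.42.0, other scalings and filters, a replicate block, Y-linked expression as a covariate, thinning to 16756231 counts, and each library left out.

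The genes, the lists and the libraries left out together were chosen with earlier results of these data known. All 10 genes, Cdkn1c and Cdkn2d are named; other named list genes are the up to 3 largest called rises and falls per list and comparison among those reaching 5 CPM on average in either group. Some genes that this rule or the search for like genes names are not reported here. Cdkn1a shares 273 exon bases (7.68%) with AC167363.2 on the opposite strand, and 8.49% of its 50-base stretches recur in other genes, against 3.95% for Trp53, 2.04% for Aen, 1.32% for Mdm2, 0.88% for Zmat3 and 0 for the others. A promoter search for E2F sites was made and not kept.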

Additional observations from a re-analysis of the deposited data

Results flagged for a closer look

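Among the 10 genes in 3 groups of 4 libraries, 2 libraries lay further from their group than Dixon's 95% criterion allows, where chance alone would mark about 1 group in 20. Cdkn1b was lowest in Adult NSC 4, at 111 CPM against 118.7 to 120.2 CPM in the other 3. Cdkn2a was lowest in Adult NSC 3, at 37.1 CPM against 40.03 to 40.5 CPM. Both gaps are small in size, since the Adult NSC libraries lie close together. Cdkn2c in Postnatal OPC 2 had a wider gap, at 40.5 CPM against 65.8 to 71.1 CPM, and fell just short of the criterion. The Cdkn2a value is still above each Postnatal NSC and Postnatal OPC library.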

How the results depend on the processing

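Across 24 alternatives, 15 of the 30 member results kept both direction and side of the threshold in each, among them each call on Cdkn1a, Ccng1, Cdkn2b and Zmat3, and 4 lost a call in at least 1; of 117 results on named list genes, 84 kept both, 31 lost a call in at least 1, 2 gained one and 0 turned direction. The number of the 10 genes called in the adult comparison ranged from 3 to 6 when 1 library was left out, in the OPC against Postnatal NSC from 3 to 6, and in the OPC against Adult NSC it was 8. Without Postnatal NSC 3 and Postnatal OPC 2 together, 7 genes were called in the OPC against Postnatal NSC. Counts over all genes stayed within 1.5 times in each alternative.

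For each turned direction the cause was not tested. Directions that turned belong to results not called. With library totals only, the adult comparison gave -0.0279 for Cdkn1b and -0.0304 for Cdkn2b. Without Postnatal NSC 3 and Postnatal OPC 2 together, it gave -0.13 for Cdkn2b and -0.0253 for Trp53, and Zmat3 was -0.0400 in the OPC against Postnatal NSC; with the Y-linked covariate Zmat3 was -0.0173. Ccng1 was 0.18 there with limma-voom quality weights. Leaving out 1 library gave, in the adult comparison, -0.0933 to 0.24 for Cdkn1b (-1.87e-05 without Postnatal NSC 4), -0.12 to 0.14 for Cdkn2b and -0.0164 to 0.17 for Trp53. In the OPC against Postnatal NSC it gave -0.45 to 0.0785 for Aen, -0.28 to 0.16 for Ccng1 (0.07 without Postnatal OPC 2) and -0.0415 to 0.30 for Zmat3, and in the OPC against Adult NSC -0.0527 to 0.19 for Cdkn2c (-0.04, -0.01 and -0.0041 without Postnatal OPC 1, Postnatal OPC 4 and Adult NSC 2).

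Deviations of same-numbered libraries of different groups correlated from -0.47 to 0.44, and those of differently numbered ones from -0.52 to 0.51. With such wide ranges in both, this check cannot tell whether the replicate numbers pair the libraries, which the sources do not say. With the replicate block, 6, 3 and 8 genes were called and 8043, 6811 and 7818 of all genes in the adult, OPC against Postnatal NSC and OPC against Adult NSC comparisons; Trp53 was lost in the OPC against Postnatal NSC (adjusted p = 0.0553), and the cause was not tested. The share of higher calls in the adult comparison fell to 38.7% with library totals only, from 47.4%. Depth limits Cdkn2b most, with 438 counts over the 4 OPC libraries.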
